A study of Mus musculus with 24 samples.

Results

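Integrins are the paired receptors, 1 α and 1 β chain each, by which cells hold the extracellular matrix, and 10 of their subunit genes were followed here in pancreatic stellate cells (PSCs): Itga1, Itga2, Itga3, Itga4, Itga5, Itga8, Itga11, Itgav, Itgb1 and Itgb5. The members were chosen by name, as the α and β chains that take part in the collagen, laminin, fibronectin and vitronectin receptors of matrix-producing cells, and all 10 were among the 53801 genes listed in the expression table. PSCs are the fibroblast-like cells of the pancreas that turn into matrix-secreting myofibroblasts around a tumour. They came from wild-type C57BL/6J mice aged 7 to 10 weeks. Cells of 4 to 10 pancreata were pooled for an isolation and were used at passage 1 or 2. The tumour partner was KPC, a ductal adenocarcinoma line from a single mouse with p48-Cre and conditional alleles, among them Trp53 R172H, so 1 line stood for the tumour. PSCs grew on 1 face of a membrane with 1 µm pores. In the standard model KPC cells sat at the bottom of the well below, and in the inverse model they grew on the underside of the same membrane. PSCs were harvested with trypsin after 24 or 72 h, from co-culture or from mono-culture without KPC cells (the control), which gave 8 groups of 3 libraries. All groups shared the wild-type PSCs. In the inverse model PSCs were seeded over attached KPC cells 24 h before time zero, so both had shared a membrane for up to 96 h at the last harvest, against 72 h of shared culture in the standard model. Libraries were made from 450 ng of RNA in the standard and 120 ng in the inverse model, so model, coexistence time and input cannot be told apart. The 3 replicates of a group are described as biological, but the labels do not give the animals or cultures behind each number, and where they were technical the p-values below measure technical spread alone.

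The α chain largely sets what an integrin binds. The chains α1, α2 and α11 pair with β1 as collagen receptors, α3 pairs with β1 as a laminin receptor, and α4 pairs with β1 to bind fibronectin and the vascular adhesion molecule VCAM-1. The chains α5, α8 and αv bind the RGD tripeptide (arginine, glycine, aspartate) of fibronectin, vitronectin, osteopontin, nephronectin and the latent form of TGFβ. The β1 chain serves every one of these α chains, and β5 pairs with αv. In stellate cells and fibroblasts these receptors tie the actin cytoskeleton to the matrix, and α8 and α1 are also known from smooth muscle and mesangial cells.

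In the effect of co-culture averaged over all libraries, a test added after the data had been seen, Itga1, Itga3 and Itga8 were lower and Itga2, the direct genomic neighbour of Itga1, was higher. Of the single comparisons, those in the inverse model called Itga1 at both times and Itga8 at 24 h, and Itga2 and Itga3 passed in none. The promoters of these 4 genes are therefore shown, from 250 bases before to 50 bases after the RefSeq start (GRCm38.p6), on the strand of the gene. Capitals mark matches to 6 motifs searched on both strands: the TATA box TATAAA, the GC box GGGCGG, the CCAAT box CCAAT, the AP-1 site TGANTCA, the TEAD site GGAATG and the SRF CArG box.
Itga1 promoter, chr13:115101915-115102214, minus strand: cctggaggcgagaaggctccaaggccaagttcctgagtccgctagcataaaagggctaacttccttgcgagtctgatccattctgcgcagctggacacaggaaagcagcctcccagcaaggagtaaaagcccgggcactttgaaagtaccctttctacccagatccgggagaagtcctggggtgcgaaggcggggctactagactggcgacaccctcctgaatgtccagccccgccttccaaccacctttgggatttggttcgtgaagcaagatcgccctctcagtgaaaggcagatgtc
Itga8 promoter, chr2:12301895-12302194, minus strand: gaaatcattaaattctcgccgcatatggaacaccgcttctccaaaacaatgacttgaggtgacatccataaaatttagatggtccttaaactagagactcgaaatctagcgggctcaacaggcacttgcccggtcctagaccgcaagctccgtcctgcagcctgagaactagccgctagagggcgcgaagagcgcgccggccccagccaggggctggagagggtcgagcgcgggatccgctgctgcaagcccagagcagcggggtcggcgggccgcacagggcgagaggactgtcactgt
Itga2 promoter, chr13:114932051-114932350, minus strand: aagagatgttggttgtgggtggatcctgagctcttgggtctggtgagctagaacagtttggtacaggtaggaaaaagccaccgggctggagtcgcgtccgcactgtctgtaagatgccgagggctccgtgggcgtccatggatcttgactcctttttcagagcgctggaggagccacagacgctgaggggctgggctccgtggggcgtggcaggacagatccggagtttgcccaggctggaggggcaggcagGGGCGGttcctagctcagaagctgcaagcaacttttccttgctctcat
Itga3 promoter, chr11:95076665-95076964, minus strand: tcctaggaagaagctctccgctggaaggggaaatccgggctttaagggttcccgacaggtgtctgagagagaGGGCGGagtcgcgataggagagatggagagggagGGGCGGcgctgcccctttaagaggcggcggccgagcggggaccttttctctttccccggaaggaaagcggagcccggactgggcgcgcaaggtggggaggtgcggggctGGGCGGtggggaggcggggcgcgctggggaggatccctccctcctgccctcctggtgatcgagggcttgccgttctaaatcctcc
The windows of Itga1 and Itga8 held none of the 6 motifs. The Itga2 window held 1 GC box and the Itga3 window 3, none overlapping another motif. RefSeq gives Itga3 a second start, and its window (chr11:95069149-95069448), not shown, held an AP-1 site, a CCAAT box and a GC box. Among the 32851 promoter windows of the RefSeq table, 35.7% held a GC box, 37.4% a CCAAT box, 14.7% a TEAD site, 13.6% a TATA box, 7.81% an AP-1 site and 1.63% a CArG box. The GC content of the windows was 56.7% for Itga1, 59.0% for Itga8, 59.3% for Itga2 and 66.7% for Itga3, against a median of 52.7% over all windows. Itga1 (chr13:114953096-115101964) and Itga2 (chr13:114833081-114932100) lie head to tail on the minus strand, 20995 bases apart.

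Values are FPKM, fragments scaled by gene length and by the total of the library, and whole fragments could be recovered from them. The libraries held 15932737 to 24798761 fragments (median 18860269), and 12277 to 13307 genes lay above 1 FPKM. Stellate cell markers summed to 21965 to 39496 FPKM, although Gfap, the classical marker of quiescent stellate cells, stayed at or below 0.24 FPKM in every library. Endothelial markers summed to at most 2.95 FPKM and epithelial markers to at most 2.41 FPKM in the standard model and in the inverse controls. In inverse co-culture the epithelial sum was 1.92 to 43.5 FPKM at 24 h and 1.504 to 8.17 FPKM at 72 h. Standard replicate 1 stood apart by smooth muscle markers, up to 2021 FPKM in sum, except in co-culture at 72 h, where the highest sum was 447 FPKM. Standard replicate 2 stood apart by leukocyte markers, 360 to 1198 FPKM in sum.

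The β1 chain was the most abundant member. Mean levels over the 24 libraries were 778.7 FPKM for Itgb1, 391.9 for Itgb5, 265.1 for Itga5, 100.6 for Itgav, 83.4 for Itga11, 42.8 for Itga1, 6.996 for Itga3, 4.79 for Itga8, 4.06 for Itga2 and 0.178 for Itga4. Itgb1 was above Itgb5 in 24 of 24 libraries, and so were Itga5 above Itgav, Itga1 above Itga3 and Itga2 above Itga4. Itga11 exceeded Itga1 in 23 of 24. The remaining neighbours in this order were not separated by the spread between libraries. Itgb5 exceeded Itga5 in 19, Itgav exceeded Itga11 in 16, Itga3 exceeded Itga8 in 19 and Itga8 exceeded Itga2 in 13 of 24 libraries. FPKM divides by a gene length, and the length recovered from the table was shorter than the annotated exons for every member, for example 2405 against 10744 bases for Itgav. With annotated exon lengths Itga11 (69.8 FPKM) came before Itgav (22.5 FPKM) and Itga2 (2.16 FPKM) before Itga8 (1.38 FPKM). Levels between genes are therefore approximate, while the ratio of FPKM of 1 gene between groups does not depend on its length. The log2 differences and calls below do depend on it, since a constant was added to FPKM and genes of low FPKM were left out. That dependence is largest for low genes such as Itga8, and the tests were not repeated with annotated lengths.

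**Figure D1:**
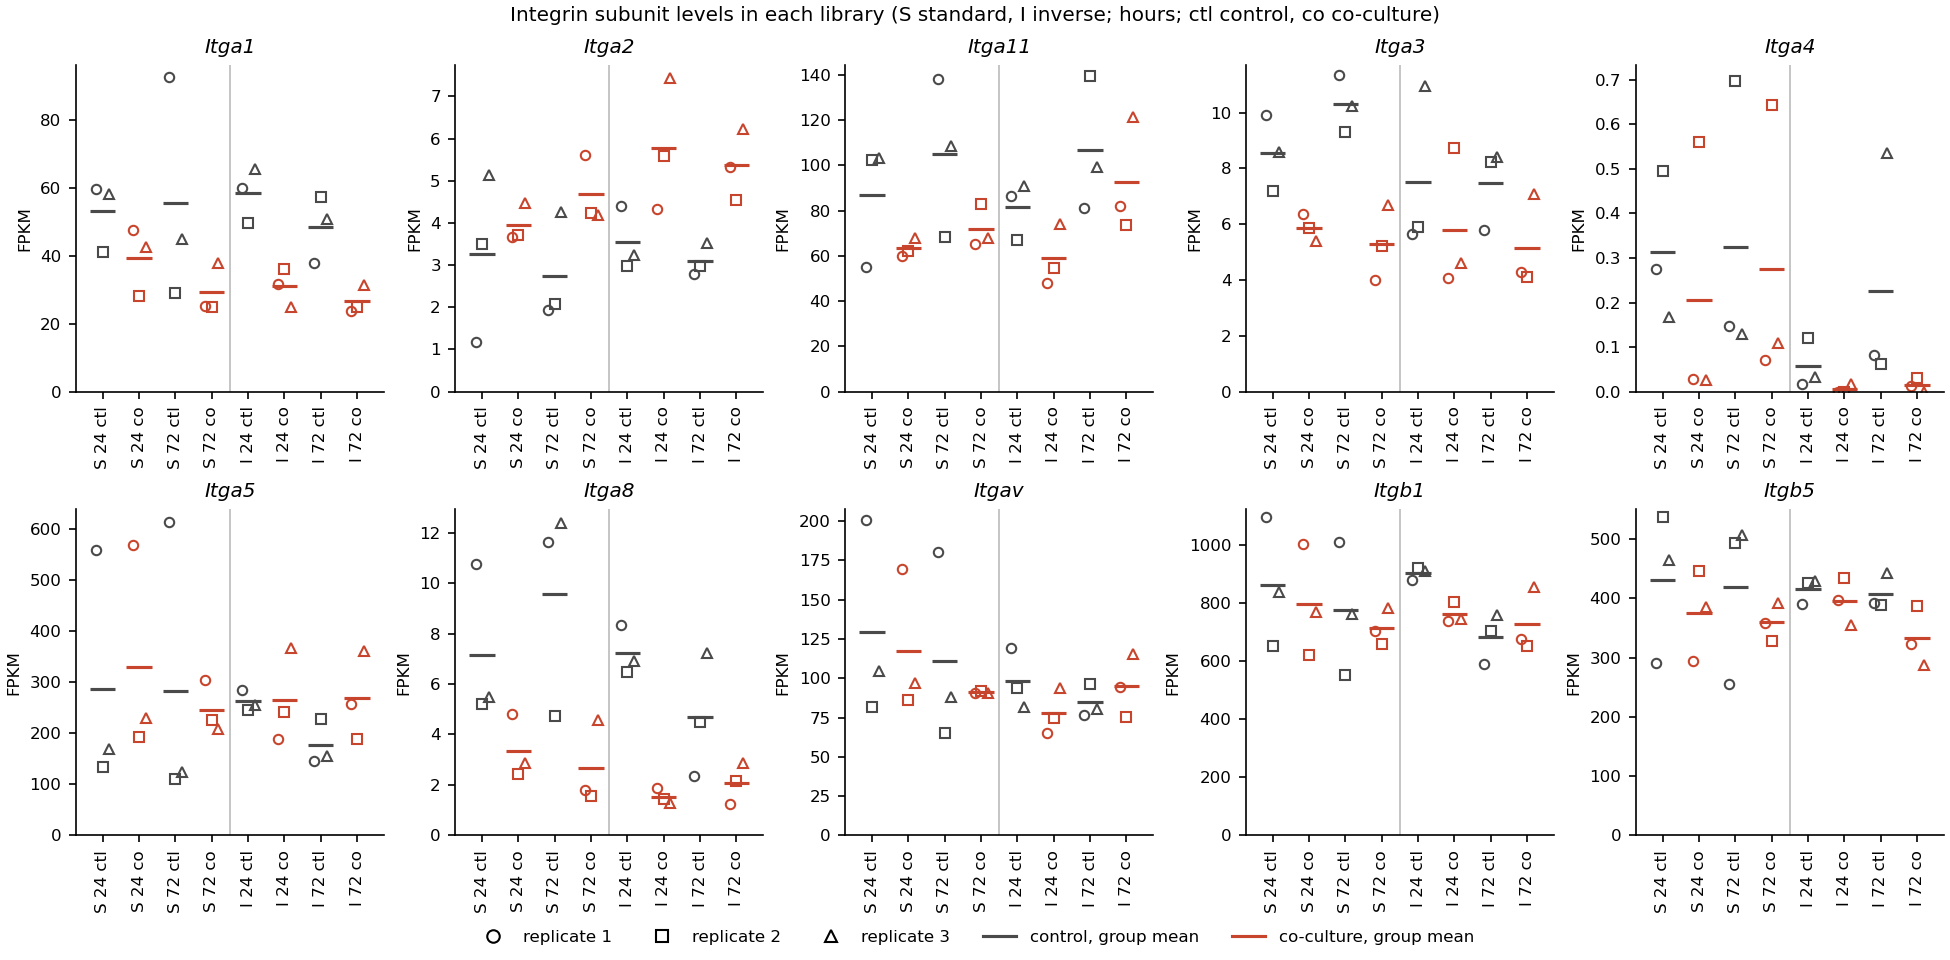
FPKM (vertical axis, linear, from 0) of the 10 integrin subunit genes in the 8 groups, 1 point per library with a mark for each replicate number and a bar at the mean of 3 libraries, gray for mono-culture and red for co-culture. Itga1 and Itga8 lay lower in inverse co-culture at 24 h without overlap, and standard replicate 1 carried the highest Itga5, up to 614 FPKM.

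Itga8 (chr2:12106632-12301922, minus strand), the α chain of the nephronectin and osteopontin receptor α8β1, showed the strongest fall with KPC cells. In the inverse model at 24 h it stood at 1.87, 1.44 and 1.29 FPKM in co-culture (replicates 1 to 3) and at 8.33, 6.46 and 6.92 FPKM in mono-culture. All co-culture libraries lay below all controls, as for 13.8% of the genes tested there, and the group means were 1.54 ± 0.301 and 7.24 ± 0.978 FPKM (SD, n = 3). The difference was -1.93 ± 0.20 (SE) on the log2(FPKM + 0.5) scale, with an adjusted p of 0.00514 (limma, two-sided, Benjamini-Hochberg over all genes tested). That call held without any 1 of the 6 libraries, with adjusted p-values of 0.0047 to 0.033, but not without replicate 2 of both groups (-1.97, adjusted p = 0.14, limma). At 72 h inverse co-culture gave 1.25, 2.17 and 2.86 FPKM and mono-culture 2.35, 4.51 and 7.24 FPKM, so the groups overlapped, and the log2 difference of -0.94 ± 0.40 did not pass (adjusted p = 0.15).

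With KPC cells in the well below, Itga8 differed in the same direction, over a wider spread. At 24 h co-culture gave 4.80, 2.43 and 2.86 FPKM and mono-culture 10.8, 5.19 and 5.50 FPKM. At 72 h co-culture gave 1.80, 1.58 and 4.59 FPKM and mono-culture 11.6, 4.74 and 12.4 FPKM. The co-culture ranges lay below the control ranges at both times, by little at 72 h (4.59 against 4.74 FPKM), as they did for 4.38% of genes at 24 h and 9.78% at 72 h. The log2 differences were -0.96 ± 0.36 at 24 h and -1.69 ± 0.48 at 72 h, neither past the threshold (adjusted p = 1 and 0.72, limma). Replicate numbers paired the samples of this model, and in the fit blocked on them Itga8 passed at 24 h (SE 0.15, adjusted p = 0.044, limma) but not at 72 h.

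Itga1, a receptor chain for basement membrane and fibrillar collagen, was the other member that fell in the inverse model. At 24 h it stood at 31.7, 36.2 and 25.1 FPKM in co-culture and at 60.0, 49.6 and 65.5 FPKM in mono-culture. At 72 h it stood at 23.7, 24.9 and 31.5 FPKM in co-culture and at 37.8, 57.2 and 50.8 FPKM in mono-culture. The groups were separate at both times, as for 13.8% of genes at 24 h and 28.8% at 72 h, with co-culture lower. The log2 difference was -0.91 ± 0.16 at 24 h (adjusted p = 0.026, limma) and -0.84 ± 0.18 at 72 h (adjusted p = 0.024, limma). Both calls were near the threshold. The call at 24 h was lost without control replicate 1, 2 or 3 (log2 difference -0.88, -1.02 and -0.82, adjusted p = 0.099, 0.06 and 0.13), and that at 72 h without co-culture replicate 1 (-0.76, adjusted p = 0.09) or control replicate 2 or 3 (-0.72 and -0.80, adjusted p = 0.064 and 0.097).

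Itga1 in the standard model gave 47.7, 28.1 and 42.6 FPKM in co-culture against 59.7, 41.3 and 58.3 FPKM in mono-culture at 24 h. At 72 h the values were 25.2, 24.8 and 37.9 FPKM against 92.7, 29.2 and 45.0 FPKM. Each co-culture library was below the control of the same number, but the groups overlapped, with 92.7 FPKM in control replicate 1 as the highest value of all. The log2 differences of -0.44 ± 0.25 and -0.78 ± 0.42 did not pass (adjusted p = 1 and 0.80, limma; 0.072 at 24 h in the fit blocked on replicate number). The Itga1 gene overlaps Pelo, a gene of messenger RNA surveillance on the same strand, at 3.71 FPKM on average and 6.15 FPKM at most. It also overlaps Gm49395 on the same strand (0.80 FPKM on average) and Gm10734 on the opposite strand (0.84 FPKM on average). Counting disregarded strand, and the effect of shared reads on the values of Itga1 was not tested.

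Itga2, the α chain of the collagen receptor α2β1, had the higher mean in co-culture in both models and at both times. In the inverse model at 72 h it stood at 5.32, 4.56 and 6.22 FPKM in co-culture and at 2.79, 2.98 and 3.53 FPKM in mono-culture. The ranges did not overlap, as for 9.53% of genes with co-culture higher, and the log2 difference of 0.70 ± 0.19 missed the threshold (adjusted p = 0.051, limma). At 24 h in that model the values were 4.33, 5.59 and 7.43 FPKM against 4.40, 2.98 and 3.24 FPKM, with overlap (log2 difference 0.62, adjusted p = 0.25). Standard co-culture at 24 h gave 3.67, 3.72 and 4.47 FPKM against 1.17, 3.51 and 5.13 FPKM, and at 72 h 5.60, 4.24 and 4.195 FPKM against 1.93, 2.07 and 4.25 FPKM, overlapping both times. The low controls there were replicate 1 at both times and replicate 2 at 72 h.

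Itga11 (chr9:62677826-62783982, plus strand), which pairs with β1 to bind fibrillar collagen and is known from fibroblasts and myofibroblasts, did not pass in any of the 4 comparisons. Its co-culture values were 59.8 to 67.8 FPKM in the standard model at 24 h, 65.2 to 83.1 FPKM at 72 h, 48.1 to 74.1 FPKM in the inverse model at 24 h and 73.6 to 121 FPKM at 72 h. The control ranges, in the same order, were 55.2 to 103, 68.4 to 138, 67.1 to 90.9 and 81.0 to 140 FPKM. Every control group had a library above all of its co-culture libraries, and every pair of groups overlapped. The inverse log2 differences were -0.48 at 24 h (adjusted p = 0.25, limma) and -0.20 at 72 h (adjusted p = 0.60, limma), and without inverse co-culture 24 h replicate 3 the first was -0.65 with an adjusted p of 0.047.

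Itga3 (chr11:95044474-95076801, minus strand), the laminin receptor chain, had separate ranges in the standard model, co-culture lower, at the backgrounds given for Itga8. Standard co-culture at 24 h gave 6.36, 5.88 and 5.38 FPKM against 9.93, 7.17 and 8.59 FPKM in mono-culture, and at 72 h 3.98, 5.23 and 6.68 FPKM against 11.3, 9.29 and 10.2 FPKM. The log2 differences were -0.50 ± 0.18 and -0.92 ± 0.21, which missed the threshold (adjusted p = 1 and 0.72, limma). Inverse values were 4.09, 8.73 and 4.595 FPKM against 5.64, 5.91 and 10.95 FPKM at 24 h, and 4.27, 4.12 and 7.10 FPKM against 5.80, 8.23 and 8.41 FPKM at 72 h. These overlapped, through co-culture replicate 2 at 24 h and replicate 3 at 72 h (log2 difference -0.35 and -0.52, adjusted p = 0.69 and 0.19, limma). That replicate 2 also had the highest epithelial marker sum of all libraries (43.5 FPKM), and without it the difference at 24 h was -0.67 (adjusted p = 0.41, limma). The part of epithelial RNA in its Itga3 value was not tested.

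Itga5 (chr15:103344286-103366763, minus strand), the fibronectin receptor chain, was the most abundant α chain, and 1 replicate stood apart in it. Standard replicate 1 gave 568 and 305 FPKM in co-culture and 560 and 614 FPKM in mono-culture at 24 and 72 h, against 110 to 230 FPKM in replicates 2 and 3. In those other replicates co-culture was above mono-culture, 193 against 133 and 230 against 169 FPKM at 24 h, and 225 against 110 and 208 against 124 FPKM at 72 h. In replicate 1 co-culture was level with mono-culture at 24 h and lower at 72 h. With KPC cells on the membrane Itga5 gave 189, 242 and 367 FPKM in co-culture against 286, 246 and 256 FPKM in mono-culture at 24 h, and 257, 189 and 361 FPKM against 146, 228 and 155 FPKM at 72 h. The log2 differences were -0.03 and 0.59 ± 0.26 (adjusted p = 0.97 and 0.16, limma), and the groups overlapped at both times. At 72 h without replicate 2 of both groups the difference was 1.02, with an adjusted p of 0.038.

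Itgav (chr2:83724397-83806916, plus strand), which serves vitronectin and latent TGFβ receptors, ranged from 65.1 to 201 FPKM and followed the same replicate, at 90.9 to 201 FPKM in standard replicate 1. Its inverse log2 differences were -0.33 at 24 h and 0.15 at 72 h (adjusted p = 0.44 and 0.56, limma). Itgb5 (chr16:33829665-33949338, plus strand), its vitronectin-binding partner, ranged from 256 to 536 FPKM and was lowest in standard replicate 1, at 256 to 359 FPKM. At 72 h in the inverse model Itgb5 stood at 323, 387 and 288 FPKM in co-culture and 391, 389 and 442 FPKM in mono-culture, just separate at a background of 28.8%, with a log2 difference of -0.30 ± 0.13 (adjusted p = 0.17, limma). Itgb1 (chr8:128685654-128733200, plus strand), the shared β chain, stood at 739, 802 and 746 FPKM with and at 879, 922 and 910 FPKM without KPC cells in the inverse model at 24 h. The ranges were separate at a background of 13.8%, and the log2 difference of -0.25 ± 0.088 did not pass (adjusted p = 0.23, limma), and at 72 h it was 0.09 (adjusted p = 0.72).

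Itga4 (chr2:79255426-79333123, plus strand), a receptor chain best known from leukocytes, was near the detection limit. It had fewer than 10 fragments in 15 of 24 libraries and 0 in 3 libraries, where 3 fragments, the limit that a count of 0 allows, would amount to at most 0.0438 FPKM (counting error only). It never reached 1 FPKM and was not tested, so 9 of the 10 members had a test in each comparison. Its highest values were 0.496 to 0.698 FPKM in standard replicate 2, in co-culture and mono-culture alike, and 0.536 FPKM in inverse control 72 h replicate 3. Leukocyte markers were highest in standard replicate 2 as well. Over the 24 libraries Itga4 and the leukocyte sum had a Pearson r of 0.81, a description across libraries that share their groups.

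Counted over members, the inverse model gave calls and the standard model gave none without pairing. At 24 h in the inverse model 2 of 9 members passed, Itga1 and Itga8, both lower, where 1.39% of the 12827 genes tested were lower. At 72 h 1 of 9 passed, Itga1, lower, where 9.57% of 13066 genes were lower and the median of all genes was -0.16 on the log2 scale. Scaling by median ratios or by quantiles left Itga1 at -0.68 and -0.69 there, past the threshold in neither (adjusted p = 0.053 and 0.057, limma), and brought Itga2 past it at 0.84 and 0.90 (adjusted p = 0.031 and 0.027, limma). At that background a single lower member is not a result about integrins. In the standard model 0 of 9 passed at 24 h and 0 of 9 at 72 h (limma, adjusted p under 0.05), and 0% of all genes passed at either time. At an unadjusted p under 0.05, 2 members passed at each time, Itga3 and Itga8, beside 371 of 12859 genes at 24 h and 800 of 12863 at 72 h, and limma-voom on the recovered fragments called 0 genes. In one model over all 24 libraries, with a spread shared by both models, no member passed in any of the 4 comparisons, and Itga8 in the inverse model at 24 h had an adjusted p of 0.094 (limma). In the fit blocked on replicate number 1 of 9 members was lower at 24 h, Itga8, where 0.56% of genes were lower, and 0 of 9 passed at 72 h, where 0.00777% of genes passed. The member medians of the log2 difference were -0.17 and -0.16 in the standard model and -0.33 and -0.20 in the inverse model at 24 and 72 h, against -0.01, -0.09, -0.06 and -0.16 over all genes.

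**Figure D2:**
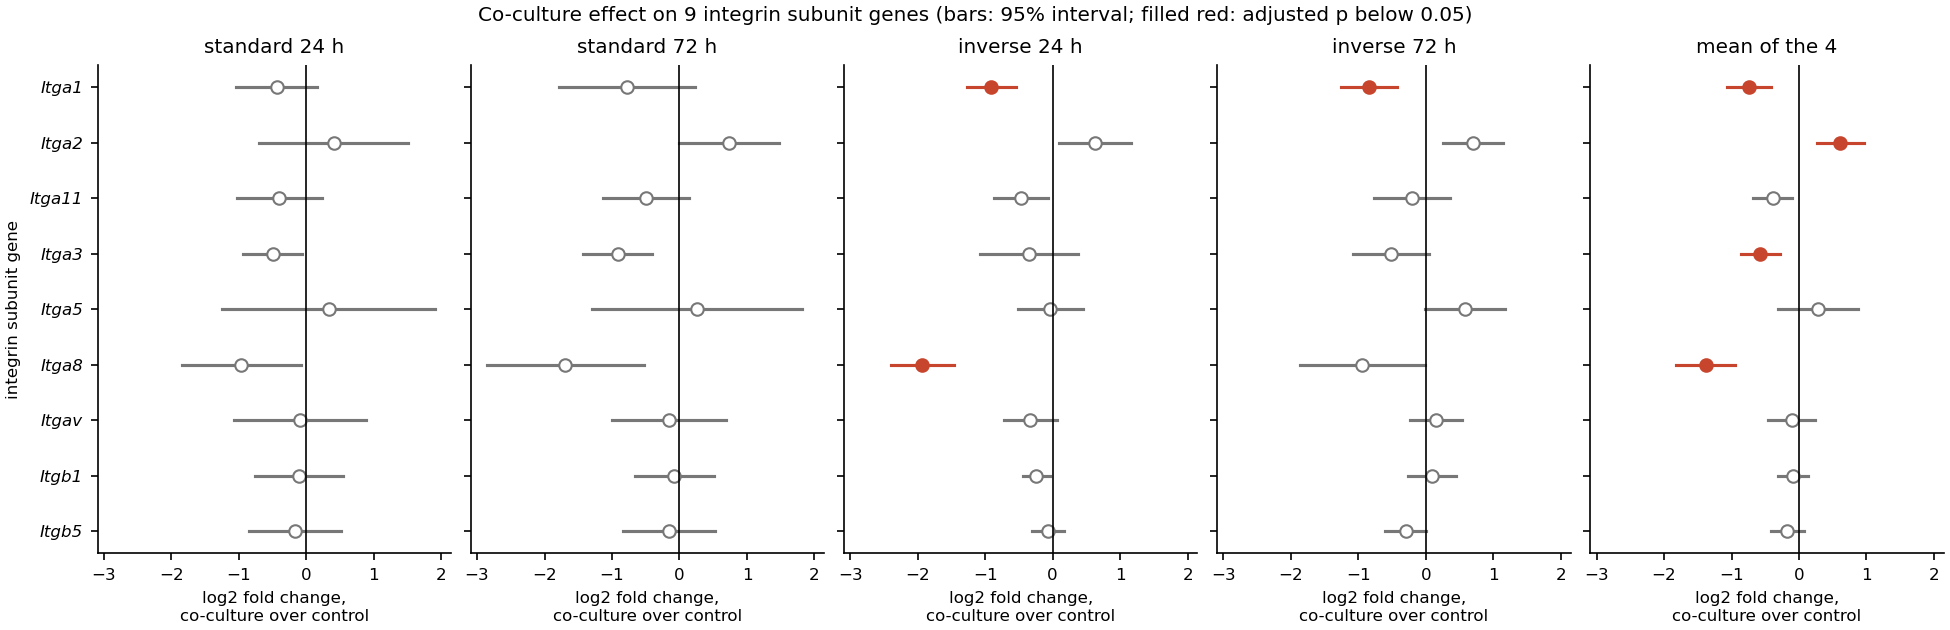
Log2 fold change of co-culture over control with its 95% interval (horizontal axis, log2(FPKM + 0.5) scale) for the 9 members tested, in each model and time and as the mean of the 4 effects, with filled red points where the adjusted p was under 0.05. Itga1, Itga3, Itga8, Itga11 and Itgb5 lie left of 0 in all 4 comparisons, as does the median of all genes, and Itga2 lies right of 0. The last panel is the mean of these 4 effects and adds no separate estimate.

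Whether a member answered differently in the models or at the times was tested as a difference of differences. In the fit without a block on replicate number no member passed, and 0% of genes did. This held for inverse minus standard at 24 h, for the same at 72 h, for 72 h minus 24 h in the standard model and for 72 h minus 24 h in the inverse model. At an unadjusted p under 0.05 no member passed either (limma), beside 182, 501, 141 and 1471 genes, and voom called 0 genes in the first 3 tests and 14 in the last, no member among them. In the fit blocked on replicate number 0 members passed in these tests (limma). For inverse minus standard at 72 h it called 16 of 14452 genes (0.111%), all lower. The intervals below are from the fit without the block and were wide. Between models the SE was 0.51 with the block against 0.59 without it for Itga8, and 0.35 against 0.44 for Itga1. The fall of Itga8 differed between the models by -0.97 at 24 h (95% interval -2.21 to 0.27) and by 0.75 at 72 h (-0.49 to 1.99), and within the inverse model the fall was smaller at 72 h by 0.99 (-0.03 to 2.01). For Itga1 the difference between models was -0.47 (-1.38 to 0.44) at 24 h and -0.06 (-0.97 to 0.85) at 72 h.

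The effect of co-culture averaged over both models and both times was added after the data had been seen, and it uses the same 24 libraries as the 4 comparisons, so it is no independent check of them. Of 9 members 3 were lower, where 10.9% of the 14452 genes tested were lower, and 1 was higher, where 4.02% were higher. Itga8 had an average log2 difference of -1.38 ± 0.21 (adjusted p = 0.000247, limma) and was lower in 6 of 6 pairs of the standard model, where the numbers pair samples. These pairs are the 3 replicate numbers taken at 24 h and again at 72 h, so they are not independent. The share of all genes with as many pairs lower was not computed. Itga1 had -0.74 ± 0.15 (adjusted p = 0.00334, limma), also with 6 of 6 standard pairs lower. Itga3 had -0.57 ± 0.14 (adjusted p = 0.00927, limma), with 6 of 6 standard pairs lower. Itga2 had 0.61 ± 0.17 (adjusted p = 0.0184, limma), with 4 of 6 standard pairs higher. Itga11 came next at -0.39 ± 0.14 (adjusted p = 0.0593, limma; 0.039 in the fit blocked on replicate number).

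Taken 1 model at a time, more members passed in the inverse model. There 2 of 9 members were lower (14.2% of genes), Itga1 at -0.88 and Itga8 at -1.43, and 1 was higher (5.04% of genes), Itga2 at 0.66. In the standard model alone 0 of 9 passed (0.117% of genes in either direction), with Itga1 at -0.61, Itga2 at 0.57, Itga8 at -1.33 (adjusted p = 0.158, limma) and Itga3 at -0.71 (adjusted p = 0.0746, limma), against -0.44 for Itga3 in the inverse model. In the fit blocked on replicate number Itga8 and Itga3 passed there, at adjusted p = 0.0206 and 0.0215, 2 of 9 lower against 2.27% of genes. Leaving out whole replicates changed the list in both directions. Without replicate 3 in every group Itga8 alone passed (Itga1 -0.77, Itga2 0.72 and Itga3 -0.53, adjusted p = 0.11, 0.069 and 0.11, limma). Without standard replicate 1 in its 4 groups 5 members were lower (19.4% of genes), Itga1 (-0.62), Itga3 (-0.50), Itga8 (-1.27), Itga11 (-0.38) and Itgb5 (-0.28), and 2 were higher (6.1% of genes), Itga2 (0.43) and Itga5 (0.48). Itga2 missed the threshold when standard replicate 2 or inverse replicate 2 or 3 was left out of its 4 groups (adjusted p = 0.062, 0.081 and 0.12, limma).

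Time in mono-culture also moved members. In the inverse controls 2 of 9 were lower at 72 h than at 24 h, where 9.05% of 13092 genes were lower, both from the fibronectin receptor. Itga5 went from 286, 246 and 256 FPKM to 146, 228 and 155 FPKM, a log2 difference of -0.60 ± 0.16, and Itgb1 from 879, 922 and 910 FPKM to 590, 704 and 757 FPKM, a log2 difference of -0.41 ± 0.11 (adjusted p = 0.034 for each, limma). The 72 h libraries lay below every 24 h library for both genes. The share of all genes without overlap was not computed here, and 19.2% of all genes passed in either direction. Neither call held without any 1 of the 3 libraries at 24 h or without replicate 1 at 72 h, where adjusted p-values were 0.074 to 0.11, and Itga5 also failed without replicate 3 at 72 h (-0.52, adjusted p = 0.097). In the standard controls 0 of 9 members and 0% of genes passed (limma; 0 members and 127 of 12963 genes at an unadjusted p under 0.05, and 0 by voom).

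In shares of the summed FPKM of the 8 α chains, Itga5 held the largest part in every group mean, 40.7% to 58.7%, followed by Itgav with 17.6% to 22.4% or Itga11 with 12.8% to 24.5%. Itga1 held 5.53% to 11.3%. The collagen-binding chains together (Itga1, Itga2 and Itga11) held 25.3% in inverse co-culture at 72 h (23.8% to 27.6% over the 3 libraries) and 36.5% in mono-culture (34.5% to 37.9%). At 24 h they held 21.95% (18.6% to 24.5%) against 27.6% (25.4% to 30.99%). Co-culture was lower without overlap at both times, with no share over all genes to set beside it. At 72 h Itga1 held 5.53% against 11.3% and Itga11 18.7% against 24.5%, while Itga2 held 1.11% against 0.739%. Itga5, part of the same total, held 53.8% against 40.7%. Standard group means of the collagen-binding chains were 21.04% against 29.6% at 24 h and 23.7% against 32.2% at 72 h. Their ranges overlapped, since replicate 1 gave 12.9% with and without KPC cells at 24 h. RGD-binding chains made up most of the remainder, at 73.6% against 61.7% in the inverse model at 72 h. These shares are a description without a test, and they move with the gene lengths behind FPKM. Itgb1 held 62.6% to 68.5% of the FPKM of both β chains in every group.

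**Figure D3:**
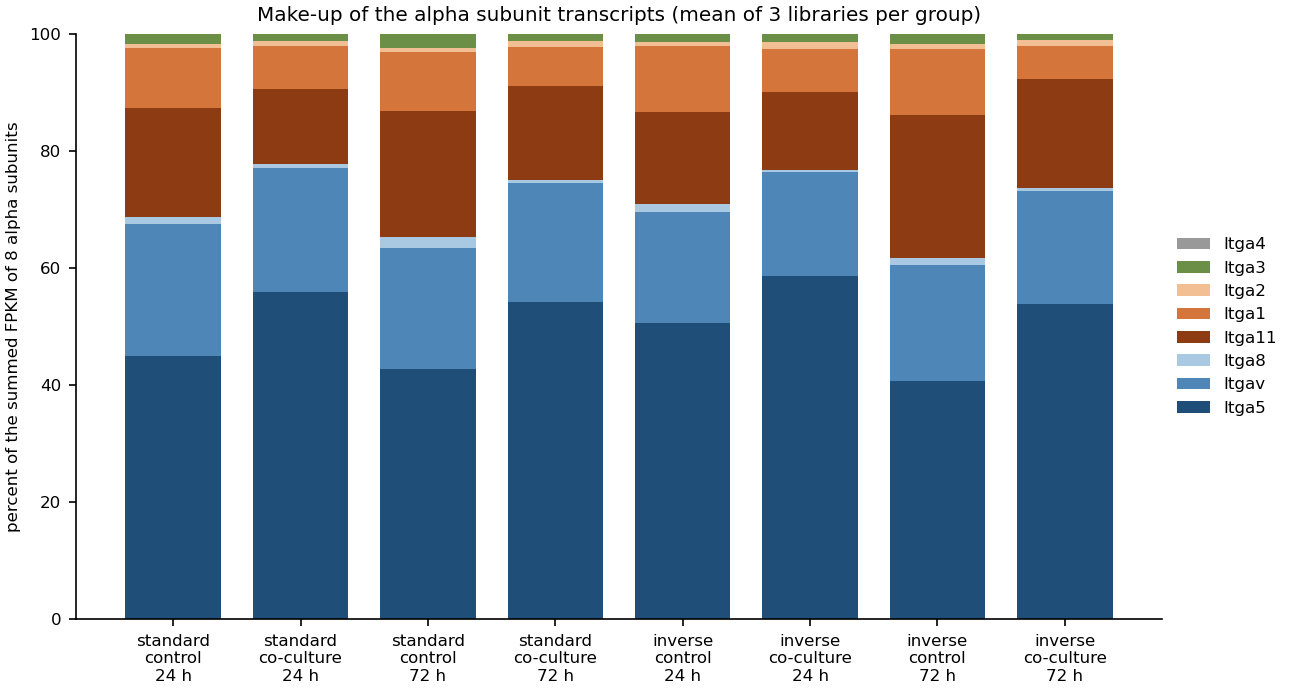
Share of each α chain in the summed FPKM of the 8 α chains (percent, vertical axis), as the mean of the 3 libraries of each group, stacked to 100. Itga5 is the largest share in all 8 groups, and the collagen-binding chains take 25.3% in inverse co-culture at 72 h against 36.5% in its control.

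Over the 24 libraries some members varied together on the log2 scale, in sets that were not separate from each other. Itga1 varied with Itga8 (Pearson r = 0.84) and Itga3 with both (0.72 with Itga1 and 0.74 with Itga8), while Itga2 varied opposite to Itga8 (-0.62). Itga5 varied with Itgav (0.83) and Itgb1 (0.75), and Itgav with Itgb1 (0.77), whereas Itgb5 went opposite to Itga5 (-0.87) and Itgav (-0.72). Between Itga1, Itga3 or Itga8 and Itga5, Itgav or Itgb1, r ran from 0.02 (Itga3 with Itga5) to 0.68 (Itga1 with Itgb1). Over the 20 libraries without standard replicate 1, the second set had lower values, 0.59 for Itga5 with Itgav, 0.56 for Itga5 with Itgb1, 0.53 for Itgav with Itgb1, -0.76 for Itgb5 with Itga5 and -0.43 for Itgb5 with Itgav. Itga1 and Itga8 had 0.78, Itga3 and Itga8 0.65, Itga1 and Itga3 0.61 and Itga2 and Itga8 -0.45. Across the sets Itga1 and Itgb1 had 0.59. These values describe libraries that share groups and replicate numbers, and no p is attached. By the same measure the genes most like Itga8 were Pawr (0.90) and Pkia (0.89), most like Itga1 Pbxip1 and Picalm (0.96 each), near to Itga5 Mical2 (0.94), most like Itgb1 F2r (0.95) and Esyt2 (0.94), and most like Itgb5 Stk39 (0.94) and Ptges (0.90). The nearest genes were Rai14 (0.90) and Lgi3 (0.86) for Itga2, Tmbim1 (0.84) and Pawr (0.81) for Itga3, Dennd4a and Bptf (0.87 each) for Itga11, and Nup160 and Plxna1 (0.91 each) for Itgav.

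**Figure D4:**
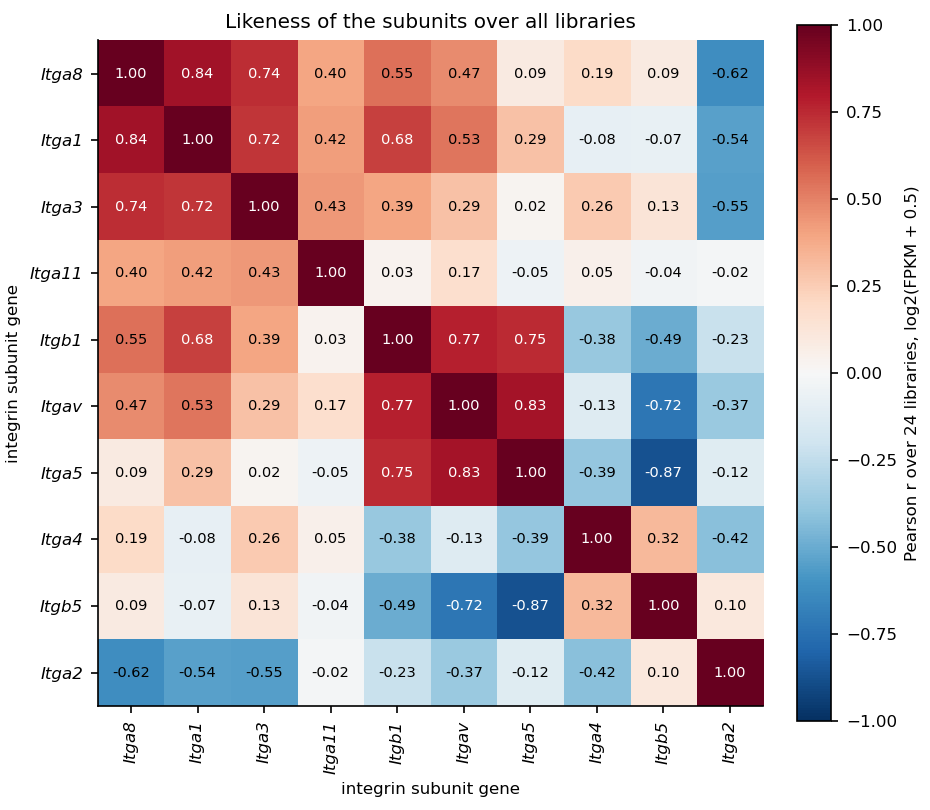
Pearson r between the 10 members over 24 libraries on the log2(FPKM + 0.5) scale (color, from -1 to 1). Itga1, Itga3 and Itga8 form a positive block, as do Itga5, Itgav and Itgb1, but the blocks are not separate (Itga1 with Itgb1 0.68). Itgb5 runs opposite to Itga5 at -0.87.

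Markers of other cell types moved with some of these results. Smooth muscle and pericyte markers (9 genes) summed to 457 to 538 FPKM in inverse co-culture at 24 h against 937 to 1091 FPKM in mono-culture, and to 241 to 416 FPKM against 387 to 687 FPKM at 72 h. Of 7 tested, 4 were lower at 24 h, Mcam (-1.90), Myh11 (-1.31), Cnn1 (-0.95) and Notch3 (-0.79), where 1.39% of all genes were lower. At 72 h 2 were lower, Mcam (-2.16) and Notch3 (-0.77), where 9.57% of all genes were lower. Itga1 was called at both times and Itga8 at 24 h only. Over 24 libraries the muscle sum had an r of 0.81 with Itga1, 0.59 with Itga8, 0.88 with Itgb1 and 0.72 with Itga5. With the same genes in that order, the stellate sum had -0.67, -0.61, -0.54 and -0.26. The mesothelial sum had -0.63, -0.45, -0.82 and -0.80, and the leukocyte sum -0.29, -0.03, -0.71 and -0.73. None of these values was recomputed without standard replicate 1. The part of any of these cell types in the fall of Itga1 and Itga8 was not tested. In bulk RNA, fewer cells of a type and less RNA per cell cannot be told apart. Leukocyte markers summed to 49.5 to 79.4 FPKM in inverse co-culture at 72 h against 118 to 227 FPKM in mono-culture. Of 6 tested 5 were lower there, beside 9.57% of all genes: Cd14 (-1.88), Adgre1 (-1.75), C1qa (-1.66), Csf1r (-1.39) and Lyz2 (-1.30). Krt19, an epithelial keratin, rose there from 0.0974 to 2.04 FPKM. The epithelial sum at 24 h reached 43.5 FPKM in inverse co-culture, above the levels of Itga2, Itga3 and Itga8, and over 24 libraries it had an r of 0.40 with Itga2, -0.45 with Itga8 and 0.02 with Itga3. Its part in these members' values was not tested. Among stellate markers Acta2, the actin of myofibroblasts, was lower at 24 h (-1.01) and Col3a1 higher (0.59). The fibroblast receptor gene Pdgfra was higher at both times (0.53 and 0.38), and Lum, the matrix proteoglycan lumican, was lower at 72 h (-1.59). Of the endothelial and mesothelial markers 1 each was tested in these comparisons and 0 passed (limma).

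The other genes of the adhesion system were read from lists chosen by name. Of 22 genes for ligands with RGD or α4 sites 18 were tested. In the inverse model 1 was higher and 2 lower at 24 h, and 3 were higher and 4 lower at 72 h, where 2.47% and 12.8% of all genes passed in either direction. Spp1, osteopontin, a ligand of α8β1 and the αv receptors, rose from a mean of 67.3 to 899 FPKM at 24 h (log2 difference 3.73) and by 3.21 on the log2 scale at 72 h. Fn1, fibronectin, rose at 72 h from 3286 to 9353 FPKM (1.51), and Tnc, tenascin C, rose by 1.55. Npnt, nephronectin, the preferred partner of α8β1, fell at 72 h (-1.20), together with the vitronectin gene Vtn (-2.22) and Vcam1 (-1.30), with 1 more ligand gene. At 24 h Tgfb3 (-0.94) and Fbln5, fibulin 5 (-0.66), fell. Of these, 0 of 18 passed in the standard model at either time (limma), but in the fit blocked on replicate number 3 were higher at 24 h, Spp1 (2.78), Fn1 (0.78) and Tgfb1 (0.50), and 2 lower, Fbln5 (-0.65) and Vcam1 (-0.54).

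Of 20 collagen and laminin chains 19 were tested. In the inverse model Col3a1 was higher (0.59) and Lama5, the α5 chain of basement membrane laminin, lower (-1.17) at 24 h. At 72 h Col5a2 was higher (0.57), and Lamb3 (-1.99), Lama5 (-0.98), Col6a3 (-0.79) and Col6a2 (-0.52) were lower. Of all genes 2.47% passed at 24 h and 12.8% at 72 h, in either direction. None (0 of 19) passed in the standard model (limma), and Lama5 fell at 24 h in the fit blocked on replicate number (-0.77, adjusted p = 0.02). The laminin receptor chain Itga3 did not pass in the inverse model at either time (adjusted p = 0.69 and 0.19, limma), and a link between Lama5 and Itga3 was not tested.

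**Figure D5:**
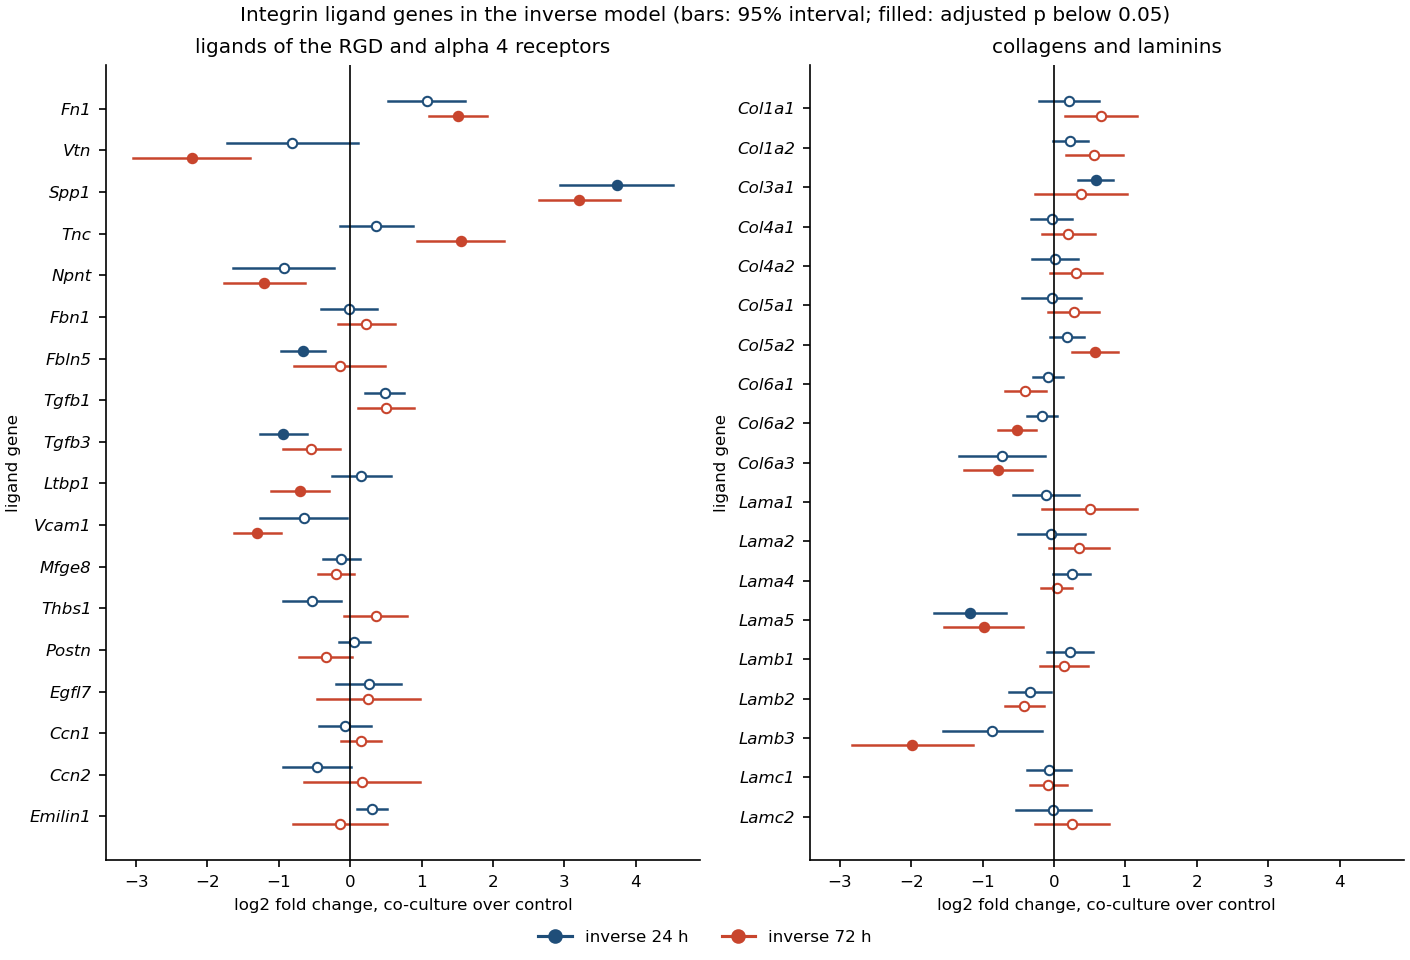
Log2 fold change of co-culture over control in the inverse model (horizontal axis, log2(FPKM + 0.5) scale) for the tested ligand genes. Points and bars are blue for 24 h and red for 72 h, and points of either color are filled where the adjusted p was under 0.05. Spp1 lies far to the right at both times (3.73 and 3.21), and Vtn lies lowest among RGD ligands at 72 h (-2.22).

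Of 28 adaptors that tie integrins to actin, 7 were lower and 0 higher in the inverse model at 24 h (limma), where 1.39% of all genes were lower: the scaffold gene Nedd9 (-1.34), Lims2 (-0.80), the tensin gene Tns1 (-0.76), the kinase gene Ptk2b (-0.68), the actinin genes Actn4 (-0.65) and Actn1 (-0.59), and 1 more gene. At 72 h Pxn, paxillin, was higher (0.54), and Nedd9 (-1.11) and Itgb1bp1 (-0.57) were lower, of 29 tested. Of all genes 3.27% were higher and 9.57% lower at that time. In the standard model 0 of 29 passed at 24 h (limma), and in the fit blocked on replicate number Nedd9 (-1.15), Lims2 (-0.72) and Tns1 (-0.51) were lower. Of 12 membrane partners of integrins Sdc4, the fibronectin co-receptor syndecan 4, rose in the inverse model at 24 h (0.65) and 72 h (1.38), and Plaur, the urokinase receptor gene, at 72 h (0.84). Of all genes 1.08% were higher at 24 h and 3.27% at 72 h.

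Among the 17 remaining integrin genes 6 passed the filter on low values in the inverse model at 24 h, and none of those changed there. At 72 h Itga6, another laminin receptor chain, stood at 0.828, 1.39 and 1.49 FPKM in inverse co-culture and at 13.7, 11.99 and 16.9 FPKM in mono-culture, a log2 difference of -3.09 ± 0.23 (adjusted p = 0.00269, limma). It was the only one of the 6 tested at 72 h that changed, where 12.8% of all genes passed in either direction. At 24 h inverse co-culture stood at 2.62, 3.83 and 1.56 FPKM and mono-culture at 3.96, 2.13 and 4.46 FPKM, and the rise over time in mono-culture passed as well (1.91, adjusted p = 0.00252, limma).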

How the data were processed

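RNA of pancreatic stellate cells was sequenced by the authors as poly-A libraries with paired reads of 150 bases. They aligned the reads with HISAT2 2.0.5 to GRCm38.p6 and counted them with featureCounts 1.5.0-p3 at default settings, which disregard strand. The annotation release is not given in the sources used here. The deposited values are FPKM per gene and library, without scaling between libraries. The count table behind the authors' DESeq2 1.20.0 tests was not used here. Of 53801 genes, 53706 matched GENCODE M21, used for names and positions.

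Genes above 1 FPKM in at least 3 of the libraries compared were kept, transformed as log2(FPKM + 0.5) and tested with limma 3.58.1 with an intensity trend (R 4.3.3, two-sided, Benjamini-Hochberg over all genes tested, called at an adjusted p under 0.05). Each comparison used its own 6 libraries, the differences of effects between models and the average effect used 24, and those between times used 12. A fold change on this scale understates that of low genes. FPKM are multiples of 1 fragment, and fragments per gene were recovered with a gene length fitted per gene. Of 28892 genes above 0, 28887 came out whole in all libraries within 0.05 fragments, which gave 15932737 to 24798761 fragments per library. The tests were run on simulated data first. Alternatives changed the pseudocount, the filter, the scaling, the trend, the model and the libraries, and limma-voom was run on the recovered fragments.

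Replicate numbers shared by groups were checked by the correlation of same-numbered deviations from the group means. It was 0.48 to 0.82 in every pair of the standard model and -0.17 to 0.15 in the inverse model, so the numbers paired samples in the standard model. The fit with the replicate number as a block is given there where it changed a call of a member, ligand or adaptor gene. At 24 h in that model it also called 1 membrane partner higher and 1 muscle marker lower, not named here. The pairing comes from this check and not from the labels.

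The members and lists were chosen with earlier results of these data known. All members are named. From other lists, genes called in a co-culture comparison are named, at most the 6 largest changes per list and comparison, and for each member the 2 genes of highest Pearson r over 24 libraries, of which 1 is not reported here. Genes named through the block alone were chosen after their values were seen. Promoter windows come from the RefSeq table for GRCm38.p6. Groups were taken from the sample labels, and no library was left out.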

Additional observations from a re-analysis of the deposited data

How the results depend on the processing

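Of 2503 recomputed member values 2424 kept their side of the threshold, 60 were no longer called and 19 were newly called. The sign differed in 161, none of them a value called as reported. Of 280 recomputed member counts 37 moved by over 1.5 times. In the inverse model at 24 h, 2 members were called as reported and 1 (Itga8) without the filter, without the intensity trend and with the replicate block, 1 (Itga1) with a mean FPKM above 5, where Itga8 was not tested, and 0 with one model over all 24 libraries. At 72 h, where 1 was called as reported, the count was 0 without the filter and over all 24 libraries and 2 without the trend and by voom. For inverse controls over time, 2 as reported, it was 0 without the filter, with quantile normalization, without the trend, with the replicate block and over all 24 libraries. The replicate block gave 1 in the standard model at 24 h against 0 as reported, and it moved no member count beyond those named here by over 1.5 times. The average effect, 4 as reported, gave 2 with a mean FPKM above 5, 0 in the standard model alone and 2 there with the replicate block. Leaving out replicates gave 1 to 7 calls for the average effect, 0 to 3 in the inverse model at 24 h, 0 to 1 at 72 h and 0 to 2 for inverse controls over time, and 0 to 0 in the other comparisons. Where calls fell with 1 library or a whole replicate fewer, the fit had fewer samples; elsewhere the cause was not tested. With 44 to 549 fragments a library, Itga8 was measured less precisely than Itgb1 (20520 to 50369), and Itga4 (0 to 48) could not be compared.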
